A study of Homo sapiens with 4 samples.

Results

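The FKBP immunophilins examined here were 10 genes of the FK506-binding protein family, *FKBP1A*, *FKBP2*, *FKBP3*, *FKBP4*, *FKBP5*, *FKBP8*, *FKBP9*, *FKBP10*, *FKBP11* and *FKBP14*, taken by symbol from the 23287 gene symbols of the RNA-seq tables. All 10 had an FPKM (fragments scaled to transcript length and library size) of at least 1 in at least 1 library, as did 11018 gene symbols in all. The cells were T47D, a human breast cancer line that expresses the progesterone receptor (PR), grown in medium with hormone-stripped serum before treatment. Per the methods of the study, the time in this medium was longer for the DNA library than for the RNA libraries. There were 3 libraries: RNA after 10 nM R5020, a synthetic progestin, for 3 h, RNA after the vehicle, ethanol (EtOH), for 3 h, and DNA immunoprecipitated with a PR antibody after 10 nM R5020 for 1 h. Each condition had 1 library, so the spread between cultures is unknown and no test was made.

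FKBP proteins share a domain that turns the peptide bond before proline, the prolyl isomerase fold that also binds the immunosuppressants FK506 and rapamycin. The products of *FKBP4* (FKBP52) and *FKBP5* (FKBP51) carry tetratricopeptide repeats by which they dock on HSP90, and both sit in steroid receptor complexes that are not yet bound to hormone. FKBP51 is known to lower, and FKBP52 to raise, the hormone response of several of these receptors, and *FKBP5* is a widely used marker gene of glucocorticoid and progestin exposure. Other members work in the cytosol, the nucleus, the mitochondrial membrane or the endoplasmic reticulum.

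*FKBP5* stood apart from its paralogues in both kinds of data. Its FPKM was 15.9 in EtOH and 86.6 in R5020, whereas 8 of the 9 paralogues differed by less than 1.5-fold and *FKBP2* was lower in R5020. Most genes stayed within 1.5-fold too: of the 11018 gene symbols above, 7.67% were higher and 4.14% lower. Around *FKBP5* lay 5 PR binding sites, a number that 943 of the 11018 genes reached or passed. Among the 5 were the sites with the 3rd and the 10th highest score of all 11181 in the library.

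The sequences below let the *FKBP5* sites be read beside those of its paralogues. PR binds an inverted repeat of the half-sites AGAACA and TGTTCT set 3 bases apart. Sites were searched on both strands for its core, ACANNNTGT, which is its own reverse complement and lies inside the repeat, and the 15 bases of the repeat were compared with the 12 half-site letters. In each line the 15 bases are in capitals with 30 bases of hg19 (GRCh37) on either side, plus strand, 5′ to 3′.
FKBP5 site with the highest score, chr6:35695860-35695934: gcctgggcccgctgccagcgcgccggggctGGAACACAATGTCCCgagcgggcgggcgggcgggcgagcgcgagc
FKBP5 widest site, first core, chr6:35693544-35693618: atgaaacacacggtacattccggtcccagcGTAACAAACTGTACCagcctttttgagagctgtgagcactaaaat
FKBP5 widest site, next core, chr6:35693721-35693795: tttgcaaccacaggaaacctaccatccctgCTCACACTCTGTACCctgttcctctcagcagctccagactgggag
FKBP5 widest site, next core, chr6:35693881-35693955: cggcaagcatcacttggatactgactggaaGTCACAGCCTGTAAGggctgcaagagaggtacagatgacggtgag
FKBP5 widest site, last core, chr6:35694712-35694786: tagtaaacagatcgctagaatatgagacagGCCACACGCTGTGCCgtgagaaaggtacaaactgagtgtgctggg
FKBP5 site between genes, chr6:35699765-35699839: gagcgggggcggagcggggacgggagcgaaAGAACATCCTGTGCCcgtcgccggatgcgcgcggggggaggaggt
FKBP5 site furthest into the gene, core, chr6:35690428-35690502: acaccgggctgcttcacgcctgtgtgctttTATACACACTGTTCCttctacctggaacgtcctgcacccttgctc
FKBP5 site furthest into the gene, best repeat, chr6:35690282-35690356: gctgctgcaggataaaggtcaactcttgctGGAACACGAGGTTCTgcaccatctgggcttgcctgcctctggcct
FKBP1A site, chr20:1307934-1308008: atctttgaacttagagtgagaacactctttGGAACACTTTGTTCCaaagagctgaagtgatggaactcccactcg
FKBP4 intron 1 site, best repeat, chr12:2905188-2905262: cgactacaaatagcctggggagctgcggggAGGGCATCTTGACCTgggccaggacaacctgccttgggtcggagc
FKBP2 site, best repeat, chr11:64009250-64009324: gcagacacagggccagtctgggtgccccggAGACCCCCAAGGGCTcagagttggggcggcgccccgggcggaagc

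The libraries carried the genes of a luminal breast line. *KRT19*, *EPCAM*, *GATA3*, *ESR1* and *PGR* had an FPKM of 17.2 to 608 in EtOH, and all 7 luminal markers had 10.9 to 477 in R5020. *KRT8* and *KRT18* were listed at 0 in EtOH because the estimation of all their transcripts had failed there, a failure that touched 9 transcripts in EtOH and 13 in R5020 and none of the FKBP genes. Of 13 markers of myoepithelial, fibroblast, immune and endothelial cells, 11 were below an FPKM of 1 in both libraries, the exceptions being *ACTA2* (1.93 in EtOH and 1.35 in R5020) and *COL1A1* (5.12 and 3.31). The deposited coverage corresponded to 35151493 reads of 50 nt in EtOH and 36203604 in R5020. These totals are not the sequencing depth: the methods of the study state more unique paired-end reads for each library, and more in EtOH than in R5020.

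*FKBP5* was the 5th highest of the 10 members in EtOH and the highest in R5020. Its log2 fold change was 2.38. Every log2 fold change here compares log2(FPKM + 1) between the libraries, R5020 minus EtOH, which understates the change of low genes. That of *FKBP5* was the 55th largest of the 11018 retained genes, and 44 of the genes above it had an FPKM under 1 in EtOH. Among those 44 were *KRT8* and *KRT18*, listed at 0 there because their estimation had failed. In the 10225 genes with an FPKM of 1 or more in both libraries, that of *FKBP5* was the 11th largest. The coverage behind the values corresponded to 5650 reads in EtOH and 32508 in R5020. In that set of 10225 genes, only *CCND1*, which encodes cyclin D1, had both a log2 fold change and an FPKM in R5020 at or above those of *FKBP5* (22.2 in EtOH and 120 in R5020, log2 fold change 2.38). Closest to *FKBP5* in log2(FPKM + 1) over both libraries were *FJX1* (19.0 in EtOH and 82.8 in R5020), *GRHL2* (14.8 and 72.3) and *SNORD21* (21.1 and 80.0), with distances of 0.25, 0.27 and 0.41.

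**Figure D1:**
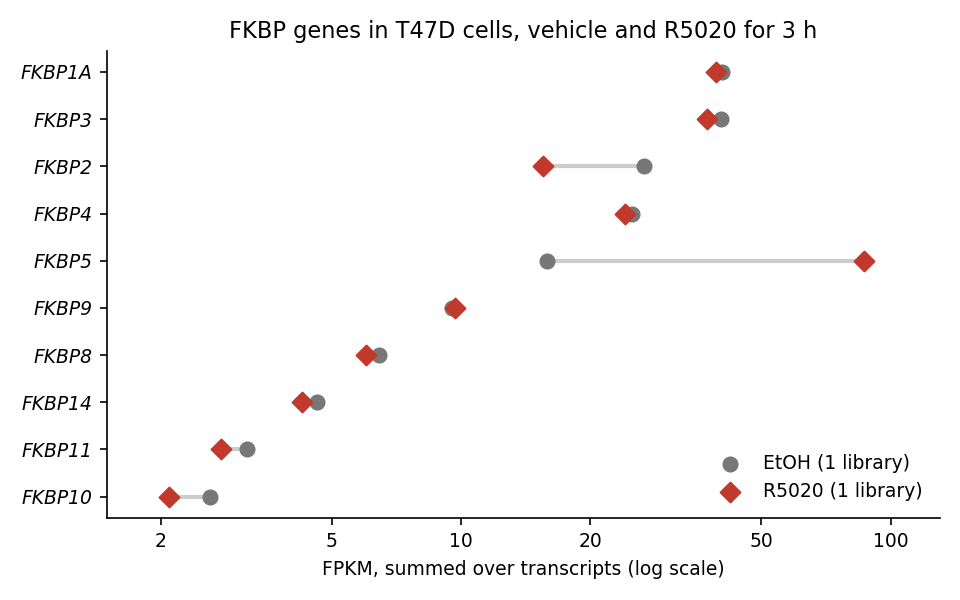
FPKM summed over transcripts (horizontal log axis) of the 10 FKBP genes in the EtOH library (grey circles) and the R5020 library (red diamonds), ordered by the EtOH level, with no error bars since there was 1 library each. FKBP5 moves from 15.9 to 86.6 and FKBP2 from 26.7 to 15.5, while the symbols of the other 8 genes lie close together.

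Of the 4 *FKBP5* transcripts in the tables, NM_004117 held the whole signal in EtOH, with an FPKM of 15.9, and stood at 79.3 in R5020, a log2 fold change of 2.25. NM_001145777, which has the same start site and a longer annotated length (7384 nt against 3782 nt), was listed at 0 in EtOH and at 7.31 in R5020. It held 8.43% of the FPKM of the gene in R5020. NM_001145776 and NM_001145775 were listed at 0 in both libraries, and NM_001145775 is the transcript whose start lies 39641 bases upstream of that of NM_004117. The deposited FPKM of NM_004117 lay below its own interval in both libraries (21.4 to 23.7 in EtOH and 113 to 117 in R5020). The interval midpoints, summed over transcripts, were 22.5 and 124.

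*FKBP4*, the closest counterpart of *FKBP5* in receptor complexes, was level, at 24.95 FPKM in EtOH against 24.1 in R5020 (log2 fold change −0.05). The FPKM of *FKBP5* was therefore 0.636 times that of *FKBP4* in EtOH and 3.59 times in R5020. *FKBP8*, whose membrane-anchored product binds BCL2 at mitochondria and also has tetratricopeptide repeats, had 6.44 and 6.01 (−0.09). Neither of these paralogues passed the threshold.

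*FKBP1A* encodes FKBP12, the small cytosolic protein through which FK506 and rapamycin act on calcineurin and mTOR, and was the highest member in EtOH. Its FPKM was 40.6 in EtOH and 39.1 in R5020 (log2 fold change −0.05), so that *FKBP5* stood at 0.391 times its level in EtOH and 2.22 times in R5020. The transcripts NM_000801 (21.1 and 22.8, log2 fold change 0.11) and NM_001199786 (19.5 and 16.3, −0.24) shared the signal, and NM_054014 was listed at 0 in both. *FKBP3*, which encodes a nuclear member of the family, had 40.2 in EtOH and 37.4 in R5020 (−0.10). Both genes kept their levels within 1.5-fold.

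The members of the endoplasmic reticulum were lower or near level in R5020. *FKBP2*, which encodes a small luminal protein (FKBP13), went from 26.7 FPKM in EtOH to 15.5 in R5020. The log2 fold change was −0.75, the 282nd lowest of the 11018 retained genes. *FKBP2* was the only member past 1.5-fold downwards, and by the deposited FPKM its rank within the family went from 3rd to 5th. The 3rd place in EtOH is uncertain, since the FPKM of *FKBP4*, 4th there, lay below its own interval of 31.3 to 33.4. Both of its transcripts with signal were lower in R5020, NM_004470 with 16.4 in EtOH and 8.72 in R5020 (−0.84) and NM_057092 with 10.4 and 6.79 (−0.54). The deposited intervals were 14.1 to 18.6 and 7.04 to 10.4 for NM_004470, and 8.69 to 12.04 and 5.42 to 8.15 for NM_057092, and they cover the estimation within a library, not the spread between cultures. NM_001135208 was listed at 0 in both libraries. The coverage of the gene corresponded to 1696 reads in EtOH and 937 in R5020.

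*FKBP9* stood at 9.54 FPKM in EtOH against 9.67 in R5020, and its log2 fold change of 0.02 was the only one above 0 among the paralogues. That sign was not stable, since the midpoints of the FPKM intervals gave −0.002. *FKBP14*, mutated in a form of Ehlers-Danlos syndrome, had 4.63 and 4.27 (−0.09). *FKBP10*, whose product is a chaperone of type I procollagen, was the lowest member, with 2.61 and 2.09 (−0.22). *FKBP11* had 3.18 and 2.76 (−0.15), from transcripts that differed in direction: NM_001143781 stood at 1.70 and 1.03 (−0.41), NM_001143782 at 1.48 and 1.73 (0.14) and NM_016594 at 0 in both. This gene had the thinnest coverage of the family, 215 reads in EtOH and 193 in R5020.

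In all, 1 of 10 members was higher by 1.5-fold or more in R5020, where 7.67% of the 11018 retained genes were, and 1 of 10 was lower, where 4.14% were. The count of members thus lay near the background in both directions, and what set *FKBP5* apart was the size of its difference. The median log2 fold change was −0.09 over the 10 members and −0.09 over the 9 paralogues, beside 0.01 over all retained genes, whose 5th and 95th percentiles were −0.53 and 0.80. The difference in log2 fold change between *FKBP5* and a paralogue ran from 2.36 (*FKBP9*) to 3.12 (*FKBP2*). The summed FPKM of the family was 175 in EtOH and 228 in R5020, and without *FKBP5* it was 159 and 141. By the deposited FPKM, *FKBP5* made up 9.08% of the family sum in EtOH and 38.1% in R5020.

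Other gene symbols of the family were measured too, 8 in number, and none of the 3 that were retained passed 1.5-fold. *FKBP15* had 5.93 in EtOH and 5.75 in R5020, the pseudogene *FKBP1AP1* 1.87 and 2.13, and *FKBPL* 2.12 and 2.17. *FKBP1B*, the nearest paralogue of *FKBP1A*, was below an FPKM of 1 in both libraries (0.323 and 0.903). *FKBP7* and *FKBP9L* were also below 1, and *FKBP6* and the readthrough *FKBP1A-SDCBP2* were listed at 0.

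None of the HSP90 machinery genes passed the threshold, where 7.67% of all retained genes passed upwards and 4.14% downwards. All 22 genes of the HSP90 machinery, the chaperones and co-chaperones with which FKBP51 and FKBP52 act, were retained and lay within 1.5-fold in both directions, the median log2 fold change being 0.02 within a range from −0.49 (*HSPA8*) to 0.29 (*HSPA4*). *HSP90AA1*, an abundant HSP90 gene, stood at 209.7 FPKM in EtOH against 222 in R5020. The other tetratricopeptide co-chaperones that compete for the same HSP90 tail, *PPID* (6.67 and 7.66), *PPP5C* (6.15 and 6.23) and *STIP1* (38.1 and 37.4), lay within the threshold as well. Of 17 retained prolyl isomerases outside the family, *NKTR*, a large cyclophilin-type protein, passed upwards (16.2 and 30.8, log2 fold change 0.89), none passed downwards and the median was −0.04.

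Of the 4 steroid receptor genes reported here, *PGR* (23.7 in EtOH and 15.3 in R5020, log2 fold change −0.60) and *ESR1* (17.2 and 10.9, −0.61) were past 1.5-fold downwards and none upwards, with a median of −0.41. *NR3C1*, which encodes the glucocorticoid receptor, had 2.41 and 1.94 (−0.21) and *NR3C2* 0.594 and 1.15 (0.43). Among 19 retained partners and targets of FKBP proteins, 3 passed upwards and none downwards, and the median was 0.13. They were *ACVR1*, a type I receptor held inactive by FKBP12 (1.84 and 4.94, log2 fold change 1.07), *PPP3CC*, a calcineurin catalytic subunit (1.89 and 4.80, 1.003), and *BCL2L1*, an inhibitor of apoptosis (36.9 and 64.8, 0.80). In the list of collagen folding in the endoplasmic reticulum, *P4HA2*, a prolyl 4-hydroxylase subunit, was the only one of 12 retained genes past the threshold (4.22 and 11.999, log2 fold change 1.32), and the median was −0.04. Across the 5 lists, which held 74 retained genes, 5 genes (6.76%) were higher and 2 (2.70%) were lower, beside 7.67% and 4.14% of all retained genes, and the largest log2 fold change was 1.32.

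**Figure D2:**
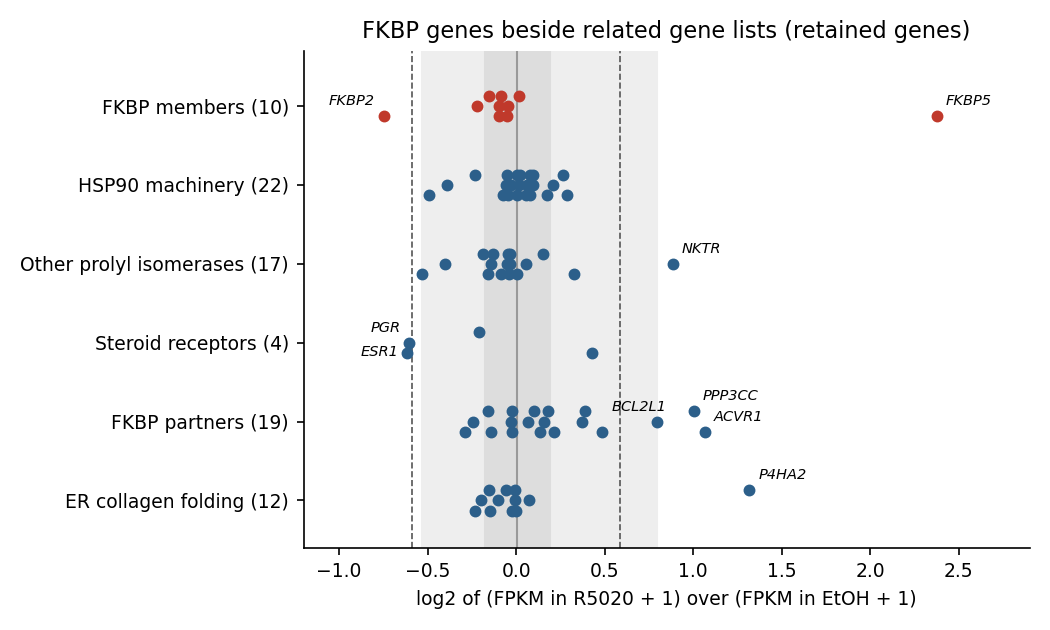
Log2 fold change between the libraries, from FPKM + 1 (horizontal axis), of each retained gene of the FKBP family (red) and of 5 related lists (blue), with the number of genes in brackets; points are offset vertically so that they do not cover each other. The dark band spans the quartiles and the light band the 5th to 95th percentiles of all 11018 retained genes, the dashed lines mark 1.5-fold, and FKBP5 at 2.38 lies beyond every other gene drawn.

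PR binding sites were tied to a gene when the nearest edge lay within 50 kb of any of its transcripts. By this rule 8 of the 10 members had a site, where 52.7% of the 11018 retained genes did, and *FKBP8* and *FKBP11* had none. The members held 28 different sites in all, 10 at *FKBP2*, 6 at *FKBP10*, 5 at *FKBP5*, 3 at *FKBP4* and 1 each at *FKBP1A*, *FKBP3*, *FKBP9* and *FKBP14*. The number of sites did not single out *FKBP5*, since 943 retained genes had as many or more. A site's score is 10 times the −log10 of the p-value from MACS, the peak caller, and has a floor of 50 and a median of 74.5 in the library.

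At *FKBP5* the scores were 1067 (chr6:35695652-35696132), 905 (chr6:35693039-35695051), 228 (chr6:35699465-35700000), 104 (chr6:35690135-35690712) and 98.6 (chr6:35716702-35716899). Of these 5 sites 4 scored 100 or more, as did 16.3% of all sites. The site of 905 was 2013 bases wide, a width that only 1 other site in the library reached or passed, where the median was 461 bases. Of the 11018 retained genes, *NFKBIA*, *FKBP5* and its neighbour *ARMC12*, which lies within reach of the same *FKBP5* sites, were those with a site of at least 1067 within 50 kb. All 3 were past 1.5-fold upwards, where 7.67% of all retained genes were (*NFKBIA* 7.82 in EtOH and 34.5 in R5020, *ARMC12* 0.215 and 1.15). *ARMC12* was retained only through its FPKM in R5020 and shares its site with *FKBP5*, so it adds no separate site.

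The *FKBP5* sites did not lie over the transcripts that carried the signal. None fell inside NM_004117, which runs on the minus strand from chr6:35656719 to 35541362. All 5 were upstream of its start, with midpoints 33704, 37326, 39173, 43013 and 60081 bases away, 4 of them within 50 kb. The paper reports PR sites upstream of this transcript, which it found enriched by ChIP-qPCR. It also cites earlier reports of PR binding in a distant intron of the human gene. The strongest site was centred 468 bases inside the start of NM_001145775, the transcript with the longest genomic extent, and it and the sites of 905 and 104 lay in intron 1 of that transcript (FKBP5-202 in GENCODE). The site of 228 lay between genes, 3372 bases upstream of the NM_001145775 start, and the site of 98.6 lay over exon 6 of *ARMC12*. The transcript that starts beside the strongest site was thus listed at 0 in both RNA libraries.

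**Figure D3:**
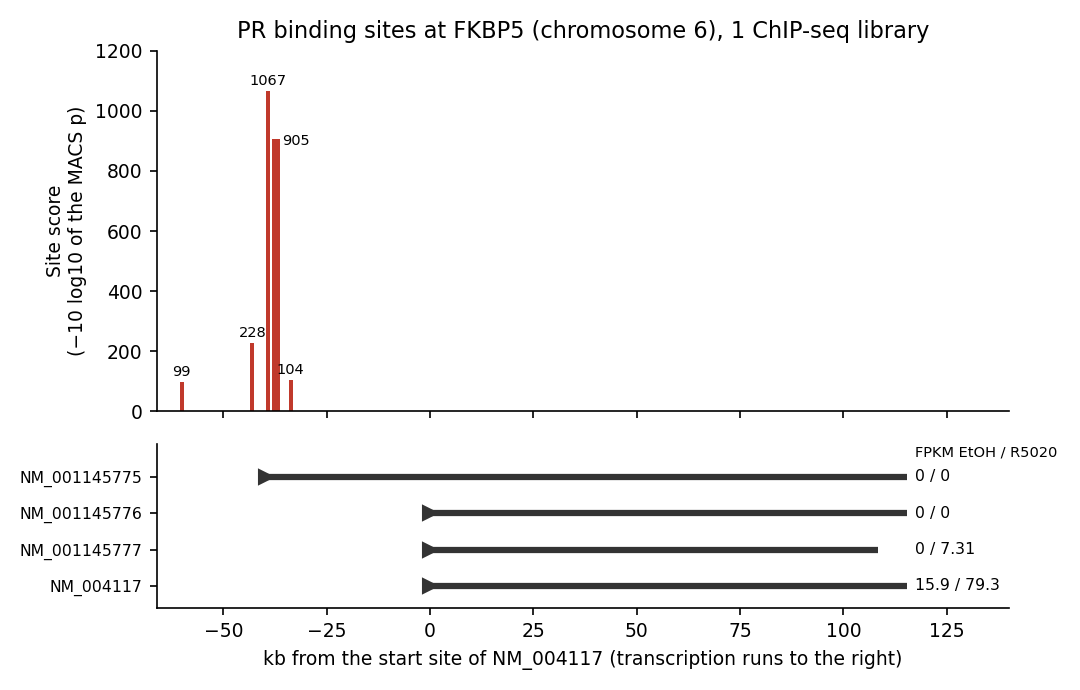
Upper panel, score of each PR binding site (vertical axis, 10 times the −log10 of the MACS p) against its distance in kb from the start of NM_004117, with bars drawn at least 1 kb wide so that they can be seen; lower panel, the 4 FKBP5 transcripts, with an arrowhead at each start and the FPKM in EtOH and R5020 at the right. All 5 sites lie 33.7 to 60.1 kb upstream of the start of NM_004117, and the highest, 1067, lies beside the start of NM_001145775.

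The 23 sites at the paralogues scored between 50.45 and 177, with a median of 68.9, and 2 of them reached 100. The highest, 177, lay in intron 1 of *FKBP4* (chr12:2904887-2905374), 1022 bases downstream of the start of a gene whose FPKM was 24.95 and 24.1. *FKBP2* had 1 site over its own 5′ end (chr11:64009126-64009524, score 86.1), in intron 1 of 3 of its GENCODE transcripts and exon 1 of another, and 9 more in *FERMT3*, *NUDT22*, *PLCB3* and *KCNK4*, the highest of them 128 in intron 1 of *KCNK4*. Nearest to *FKBP10* was a site 560 bases from the gene, within *P3H4* (score 51.5), and its other 5 sites lay in *P3H4* and *JUP*, with scores up to 96.8. The single sites of *FKBP1A* (56.2, in an intron of *SDCBP2*), *FKBP3* (57.4, in *PRPF39*), *FKBP9* (63.5, between genes) and *FKBP14* (77.95, at exon 1 of *SCRN1*) lay 22936 to 41295 bases from the gene. A site lay inside the gene at *FKBP2*, *FKBP4* and *FKBP5*, at *FKBP5* only within the extent of NM_001145775, which was listed at 0 in both RNA libraries. The share of all retained genes with a site inside the gene was not computed. High scores also occurred near other genes of the family: *FKBP15*, at 5.93 and 5.75 FPKM, had a site of 453 at 25680 bases, the 63rd highest in the library, *FKBP1B* had one of 126 and *FKBP1A-SDCBP2* one of 108.

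**Figure D4:**
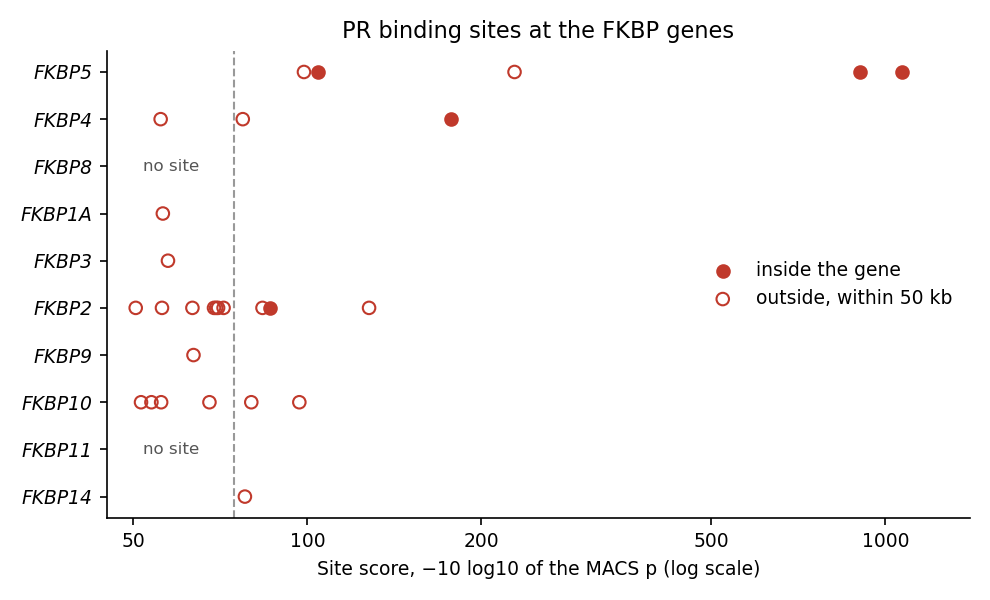
Score of each PR binding site within 50 kb of an FKBP gene (horizontal log axis, 10 times the −log10 of the MACS p), filled where the site overlaps the gene and open where it lies outside; the dashed line is the median of all 11181 sites, 74.5. The FKBP5 sites reach 1067 and 905, the highest paralogue site is 177 at FKBP4, and FKBP8 and FKBP11 have no site.

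The core ACANNNTGT was present in 4 of the 5 *FKBP5* sites and in 1 of the 23 paralogue sites, that of *FKBP1A*. It was present in 11.6% of all sites, in 10.6% of windows of the same widths 5 kb away and in 19.6% of the sites that scored 100 or more. The widest *FKBP5* site, with its 2013 bases, held 4 of the 7 cores. In the central 300 bases the counts were again 4 of 5 and 1 of 23, beside 8.20% of all sites and 7.67% of windows 5 kb away. The printed repeat of the strongest site differed from the 12 half-site letters at 3 positions, that of the site between genes at 2, and those of the cores in the widest site at 4 to 6. The best repeat of the widest site, which lacks the core and is not printed above, differed at 3. The best repeat of the site furthest into the gene, which lacks the core, differed at 2.

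The *FKBP1A* site, with a score of 56.2, held a repeat as close as any at *FKBP5*, with 2 differences, and *FKBP1A* itself was at 40.6 and 39.1. The best repeat in any of the other 22 paralogue sites differed at 3 to 6 positions, and that of the intron 1 site of *FKBP4* at 4. Counting repeats with at most 2 differences, 2 of 5 *FKBP5* sites and 1 of 23 paralogue sites held one, beside 3.53% of all sites and 2.32% of windows 5 kb away. A single half-site was present in 4 of 5 and 4 of 23, beside 25.2% and 26.3%. These matches describe the letters in the windows, not which of them was bound.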

How the data were processed

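Per the methods of the study, the authors mapped 50-bp paired-end reads, trimmed where needed, on hg19 with TopHat, dropped those with more than 1 position and estimated abundances with Cufflinks. The deposited tables give, per RefSeq transcript, FPKM with an interval, a status and a coverage. The authors aligned the ChIP-seq reads with Bowtie (version 1.1.2 in the submitters' processing notes), called sites with MACS against input DNA and deposited a score per site. The input library was not analysed here.

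FPKM was summed per gene symbol. Genes with an FPKM of 1 or more in at least 1 library were retained, and 1.5-fold on log2(FPKM + 1), a pseudocount of 1, was the threshold, without the Cuffdiff p-value. Transcripts whose estimation had failed were kept at their listed FPKM, also in the ranks and shares over all retained genes. The deposited FPKM was used even where it lay outside its own interval, as for 6 of 13 FKBP transcripts of FPKM 1 or more in EtOH and 7 of 14 in R5020. The reads behind a value were taken as the deposited coverage times length over 50 nt. The share of 50-base windows of the main GENCODE transcript with an exact match elsewhere in the genome was 37.1% for *FKBP9* and 32.6% for *FKBP1A*. It was 0 to 5.36% for the other 8 members, among them 0 for *FKBP5*. Whether paired reads from such windows were discarded was not tested. Sites were placed with GENCODE release 44 lifted to GRCh37, which is the hg19 assembly, where 11178 of 11181 sites had a chromosome.

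All members were named, with every transcript of those with several, list genes past the threshold, and the 3 genes closest to *FKBP5*. The members and lists were chosen with earlier results of these data known, and 1 gene of the steroid receptor list is not reported here. Alternatives were another pseudocount, filter, threshold, scaling, transcript choice, distance, score and motif rule. The scripts were tested on simulated data. Python 3.11.15, pandas 2.3.3, numpy 2.4.6 and pysam 0.24.0 were used.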

Additional observations from a re-analysis of the deposited data

How the results depend on the processing

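With 1 library per condition no replicate could be left out. No paired analysis was possible because each condition had 1 library and no result came from a test. All 40 gene values recomputed with a pseudocount of 0.1, FPKM scaled so that the median log2 ratio was 0, only the highest transcript or the midpoint of the FPKM interval stayed on the same side of 1.5-fold. The log2 fold change of *FKBP5* ran from 2.25 to 2.44 and that of *FKBP2* from −0.84 to −0.75, and the other 8 members stayed between −0.30 and 0.14. The smallest difference between *FKBP5* and a paralogue ran from 2.12 to 2.42. With a pseudocount of 0.1, NM_001143781 of *FKBP11* (−0.67) and NM_057092 of *FKBP2* (−0.60) also passed 1.5-fold. At a 2-fold threshold 1 member was higher and 0 were lower, and the shares of all retained genes past 2-fold were not computed. Members with a PR binding site numbered 4 within 10 kb (33.0% of retained genes), 10 within 100 kb (64.3%) and 3 when sites had to score 100 or more (18.1%). By distance to the nearest start site they numbered 7, a setting for which the share of all retained genes was not computed. Within 100 kb *FKBP5* had 8 sites, the 3 added ones scoring 57.65 to 94.4. With the repeat of at most 2 mismatches in place of the core, 2 *FKBP5* sites held the motif. Single libraries, sites without a replicate and FPKM estimates split among overlapping transcripts limit all of these values.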

Other observations

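Besides the FKBP genes themselves, 25 retained genes lay within 50 kb of any of the same PR binding sites, 13 of them near *FKBP2*. Of the 25, 4 (16.0%) were higher and 1 (4%) was lower by 1.5-fold or more in R5020, beside 7.67% and 4.14% of all retained genes. The 4 include *ARMC12*, which was retained only through its FPKM in R5020, so the 16.0% was not read as an excess. *SCRN1*, whose exon 1 carries the site nearest to *FKBP14*, went from 23.6 FPKM in EtOH to 59.9 in R5020, while *FKBP14* had 4.63 and 4.27. *ARMC12*, which shares all 5 sites of *FKBP5*, had 0.215 and 1.15, a low level in both libraries. *ESRRA*, an orphan nuclear receptor gene near *FKBP2*, had 3.68 and 7.63, and *KLHL11*, near *FKBP10*, had 4.94 and 9.13.

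At the *FKBP2* locus, *VEGFB*, which encodes a vascular endothelial growth factor, was lower together with *FKBP2* (14.9 in EtOH and 8.76 in R5020, log2 fold change −0.70). The other 11 neighbours of *FKBP2* within reach of its sites, among them the HSP90 co-chaperone gene *STIP1* (38.1 and 37.4), were within 1.5-fold, and the median of all 13 was −0.19.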
